A study of Mus musculus with 2 samples.

Results

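The genes of the Hippo pathway described here are 10 of the 43346 Ensembl genes in the deposited tables. They were named by symbol, by a rule that uses no measured value, with earlier results of these data known. They are the coactivators Yap1 and Wwtr1 (which encodes TAZ), the DNA-binding factors Tead1, Tead2, Tead3 and Tead4, the kinases Lats1 and Lats2, and the upstream and junctional regulators Nf2 (Merlin) and Amotl2 (an angiomotin family scaffold). All 10 were found in both libraries.

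The tissue was limb from B6NCrl mouse embryos at 12.5 days, when cartilage models and digits form, and its total RNA was sequenced. The study has 1 group, with no treatment, no transgene and no second condition named in its labels. Limbs of 88 embryos were pooled for replicate 1 and of 68 for replicate 2, with male and female embryos together and no separation of forelimb from hindlimb in the labels. Each library began from 10 ng of RNA longer than 200 nt. Expected counts, the estimated reads per gene, summed to 29810026 and 29938721. Levels are in TPM (a gene's length-scaled share of all transcripts in a library) and are given for replicate 1 and then replicate 2, or as mean ± SD over both (n = 2). In RNA from a whole tissue, fewer cells of a type and less RNA per cell cannot be told apart.

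In the Hippo pathway, the kinases encoded by Stk3 and Stk4 act through Lats1 and Lats2, which phosphorylate the proteins made from Yap1 and Wwtr1 and keep them out of the nucleus. Unphosphorylated YAP and TAZ enter the nucleus and bind Tead proteins, which hold the DNA contact that the coactivators lack. The pathway is known for its part in organ growth and in the response of cells to contact and tension. RNA levels do not report the phosphorylation state through which it acts.

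Tead2 was the most abundant of the 10 genes, and all 10 reached 1 TPM in both libraries. Its level was 268 ± 0.311 TPM (SD, n = 2), at the 95.9th percentile of the 12702 protein-coding genes with at least 1 TPM in both libraries. Amotl2 followed at 61.2 ± 0.608, Yap1 at 55.9 ± 3.78 and Nf2 at 53.1 ± 3.96 TPM. A middle group held Tead1 at 29.7 ± 9.11 and Lats2 at 25.0 ± 0.177 TPM. The lower end was formed by Wwtr1 at 11.6 ± 0.120, Tead3 at 9.90 ± 0.940, Lats1 at 7.28 ± 0.240 and Tead4 at 2.80 ± 0.0212 TPM. Neighbours in this order had ranges that did not overlap and means further apart than the larger SD. The exceptions were Yap1 and Nf2, and Tead1 and Lats2, whose ranges overlapped. With 2 libraries this rule describes the values only, and Amotl2 exceeded Yap1 by just 1.10-fold. The span from Tead2 to Tead4 was 95.8-fold in mean TPM, with nothing added to the values.

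**Figure D1:**
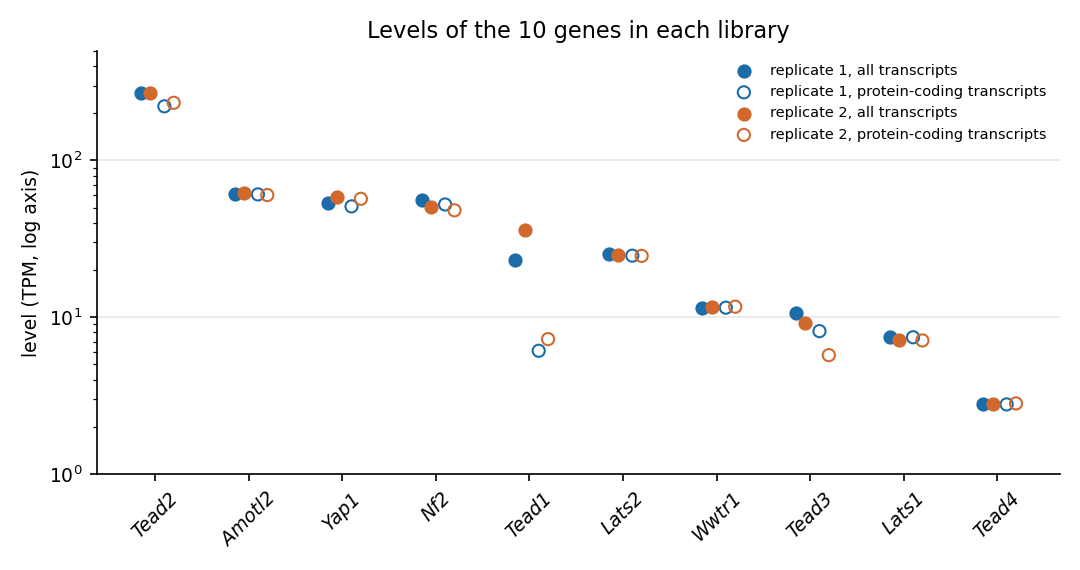
Level of each gene in TPM on a log axis, with filled points for all transcripts of the gene and open points for its protein-coding transcripts, coloured by replicate. Tead2 lies above 200 TPM by either measure, while Tead1 falls from 23.25 and 36.14 TPM to 6.11 and 7.25 TPM when only protein-coding transcripts are summed.

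The coactivators were present at unequal levels. Yap1 (ENSMUSG00000053110.9, chromosome 9, 7931999 to 8004596, minus strand, mm10) was at 53.18 and 58.53 TPM. Wwtr1 (ENSMUSG00000027803.10, chromosome 3, 57455649 to 57575910, minus strand) was at 11.5 and 11.67 TPM. Both Yap1 values lay above both Wwtr1 values. The ratio of Yap1 to Wwtr1 was 4.78-fold, with a log2 ratio of 2.20 in replicate 1 (95% interval for counting error 2.11 to 2.31) and 2.32 in replicate 2 (2.23 to 2.43). With 2 libraries an exact sign-flip test cannot give a p below 0.5, so no test of such ratios was made.

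Yap1 RNA was assigned mainly to Yap1-202, which lacks exon 6 of Yap1-201. Yap1-202 held 73.85% and 76.97% of the gene's TPM, and Yap1-201 held 20.08% and 16.82%. Both libraries gave the same order with no overlap. The exon that separates them is 48 nt long, keeps the reading frame and lies at chr9:7950492-7950539 on the minus strand. It is shown because it is the coding difference between the leading Yap1 transcripts, in capitals with 12 nt of the neighbouring exons.
Yap1 exon 6: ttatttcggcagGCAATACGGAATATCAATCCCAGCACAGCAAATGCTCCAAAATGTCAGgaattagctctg
Wwtr1 was assigned almost wholly to 1 transcript, Wwtr1-201, at 97.52% and 100% of its TPM.

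Tead2 held most of the Tead RNA. Tead2 (ENSMUSG00000030796.11, chromosome 7, 45215753 to 45233644, plus strand) was at 268.12 and 267.68 TPM, which is 88.0% and 84.7% of the summed TPM of the 4 Tead genes. With 0.1 TPM added to each value, as in all paralog ratios here unless stated, it exceeded Tead1 9.21-fold, Tead3 26.9-fold and Tead4 92.6-fold. The excess over Tead1 was 11.5-fold in replicate 1 and 7.39-fold in replicate 2. Among protein-coding transcripts alone, the Tead2 share was 92.8% and 93.6%. There Tead2 exceeded Tead1 33.6-fold, Tead3 32.7-fold and Tead4 78.3-fold. The summed TPM of the Tead genes was 304.71 and 315.86, against 64.68 and 70.2 for Yap1 and Wwtr1 together. Tead TPM thus exceeded coactivator TPM 4.71-fold and 4.50-fold, or 3.82-fold and 3.63-fold over protein-coding transcripts only.

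The leading Tead2 transcript was Tead2-201, with 64.88% and 71.06% of the gene's TPM. Tead2-202 held 12.35% and 10.17%. It lacks 105 coding bases of exon 2 of Tead2-201, in frame, at chr7:45217346-45217450 on the plus strand. This is near the start of the coding sequence, where Tead genes encode the DNA-binding TEA domain. The bases are shown in capitals because they mark what the minor transcript leaves out, with 12 nt on either side.
Tead2 exon 2, bases absent from Tead2-202: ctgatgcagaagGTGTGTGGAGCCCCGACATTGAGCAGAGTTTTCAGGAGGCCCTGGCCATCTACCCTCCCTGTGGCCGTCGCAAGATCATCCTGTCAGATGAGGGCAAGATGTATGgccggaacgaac
A further 17.2% and 12.4% of Tead2 TPM was assigned to transcripts that the later annotation used here for names (GENCODE M21) does not list.

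Most of the TPM of Tead1 came from transcripts annotated as retaining an intron. Tead1 (ENSMUSG00000055320.12, chromosome 7, 112679318 to 112906807, plus strand) was at 23.25 and 36.14 TPM. Retained-intron transcripts held 72.7% and 79.4% of this level but 17.1% and 23.9% of the gene's expected counts. TPM divides reads by length, and Tead1-209 is 646 nt and Tead1-214 is 894 nt, against 9480 nt for the protein-coding Tead1-202. Tead1-209 had 124.1 and 189.54 counts and Tead1-214 had 71.54 and 154.54, while Tead1-202 had 930.45 and 740.85. Protein-coding transcripts alone gave Tead1 6.11 and 7.25 TPM, which moved it from rank 5 to rank 9 of the 10 genes by mean TPM. By this measure Lats1 was at 7.45 and 7.11 and Tead3 at 8.15 and 5.73 TPM. Tead1 was thus below both in replicate 1 and above both in replicate 2, so these genes had no fixed order. Of the 12702 protein-coding genes with at least 1 TPM in both libraries, 279 (2.20%) had more than 50% of their TPM in retained-intron transcripts in both libraries. Tead1 was the 1 gene of the 10 to do so.

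Both retained-intron transcripts end in the region of a pair of similar neighbouring exons, shown because they are where the coding and retained-intron forms part. In Tead1-201, exon 4 (chr7:112841888-112841950) and exon 5 (chr7:112842040-112842102) are each 63 nt long and are separated by an intron of 89 nt. They are identical at 44 of 63 aligned positions (69.8%), and the 19 positions that differ are in capitals.
Tead1 exon 4: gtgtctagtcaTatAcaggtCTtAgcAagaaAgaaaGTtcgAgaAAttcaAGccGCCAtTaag
Tead1 exon 5: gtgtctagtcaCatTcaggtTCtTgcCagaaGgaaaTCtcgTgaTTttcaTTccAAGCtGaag
Tead1-202 contains exon 5 and not exon 4. The last exon of Tead1-209 runs through both exons, the intron between them and 272 nt beyond exon 5. The last exon of Tead1-214 runs from exon 5 through 293 nt of the following intron. Outside the exons of protein-coding transcripts lie 361 of the 646 nt of Tead1-209 and 293 of the 894 nt of Tead1-214. The remaining bases are shared with coding transcripts, so the assignment of reads to each was made by the quantifier. Tead1-201, which joins exons 4 and 5 and adds exon 6 of 12 nt, was given 0 and 339.47 counts.

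Tead3 and Tead4 were the least abundant Tead genes. Tead3 (ENSMUSG00000002249.13, chromosome 17, 28331671 to 28350817, minus strand) was at 10.56 and 9.23 TPM. Its transcripts were mixed, with 53.55% and 51.21% in Tead3-201 and 11.72% and 12.7% in the retained-intron Tead3-202. A 2616-nt transcript that GENCODE M21 does not list held 9.15% and 20.27%, and the protein-coding Tead3-206 held 13.58% and 0%. Protein-coding transcripts together were at 8.15 and 5.73 TPM. Tead1 exceeded Tead3 2.92-fold in TPM (log2 ratio 1.54 ± 0.58). With protein-coding transcripts only, the log2 ratio was -0.41 in replicate 1 and 0.33 in replicate 2, so the pair had no order there.

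Tead4 (ENSMUSG00000030353.11, chromosome 6, 128224288 to 128300823, minus strand) was at 2.78 and 2.81 TPM, from 125 and 115 expected counts. Its Tead4-201 transcript held 57.57% and 46.46% of its TPM and Tead4-203 held 42.43% and 46.54%, so the forms were level in replicate 2. By expected counts Tead4-201 led in both libraries, with 89.23 against 35.77 and 73.43 against 40. Tead4-203 lacks exon 5 of Tead4-201, of 129 nt and in frame, at chr6:128247960-128248088 on the minus strand. It is shown in capitals with 12 nt on either side, because it is the coding difference between these forms.
Tead4 exon 5: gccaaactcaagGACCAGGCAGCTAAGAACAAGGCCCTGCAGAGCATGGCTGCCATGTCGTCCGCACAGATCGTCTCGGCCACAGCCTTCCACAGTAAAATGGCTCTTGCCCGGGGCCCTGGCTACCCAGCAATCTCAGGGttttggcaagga

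**Figure D2:**
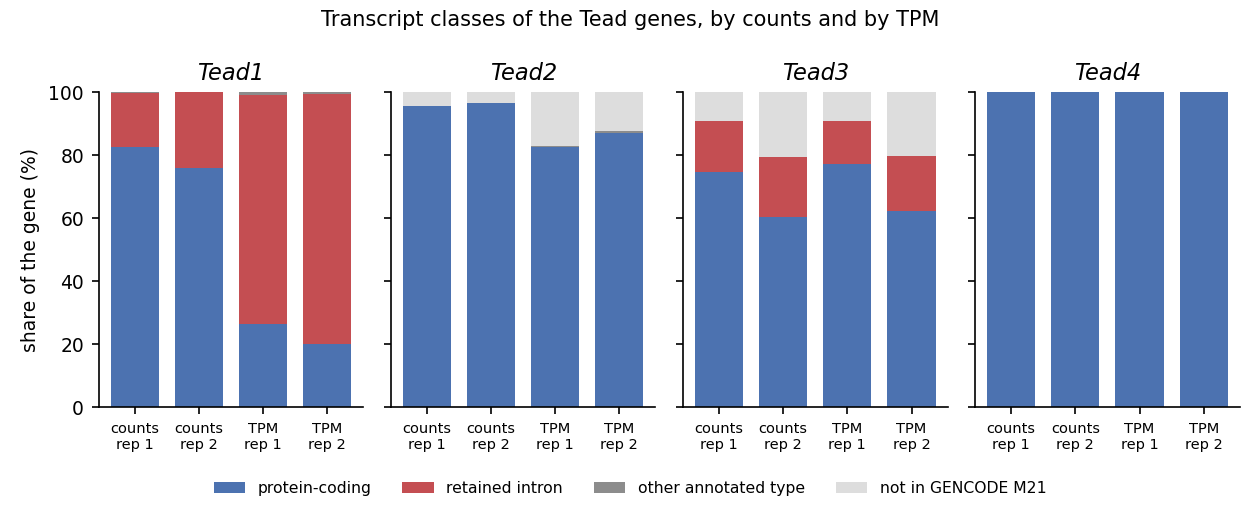
Share of each Tead gene in percent held by protein-coding, retained-intron, other and unlisted transcripts, as stacked bars for expected counts and for TPM in each replicate (rep). The retained-intron share of Tead1 is 17.1% and 23.9% by counts and 72.7% and 79.4% by TPM. No listed transcript of Tead2 or Tead4 is of this type, and the type of the unlisted Tead2 transcripts is not known.

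The kinase genes were also unequal. Lats2 (ENSMUSG00000021959.11, chromosome 14, 57689662 to 57758388, minus strand) was at 25.15 and 24.90 TPM. Lats1 (ENSMUSG00000040021.8, chromosome 10, 7681214 to 7716460, plus strand) was at 7.45 and 7.11 TPM. Both Lats2 values lay above both Lats1 values, by 3.41-fold. The log2 ratio of Lats1 to Lats2 was -1.74 (95% interval for counting error -1.86 to -1.65) in replicate 1 and -1.79 (-1.92 to -1.70) in replicate 2. Each gene had 1 dominant transcript, Lats1-202 at 99.43% and 99.53% and Lats2-201 at 88.05% and 88.56%. A processed pseudogene on the opposite strand within Lats2, Gm20430, had 52.46 and 68.35 expected counts against 2294 and 2272 for Lats2. Whether counting used strand is not stated in these sources.

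Of the upstream and junctional genes, Nf2 (ENSMUSG00000009073.12, chromosome 11, 4765845 to 4849536, minus strand) was at 55.91 and 50.31 TPM. Amotl2 (ENSMUSG00000032531.11, chromosome 9, 102716672 to 102733418, plus strand) was at 60.77 and 61.63 TPM. Merlin acts at the membrane to bring LATS kinases together with their activators, and angiomotin proteins bind YAP at junctions. Nf2-205 held 74.34% and 75.35% of Nf2 TPM. Nf2-202, at 6.88% and 8.81%, carries 33 coding bases that Nf2-205 does not, at the end of its coding sequence. Amotl2 was divided between Amotl2-203 (41.88% and 39.86%), Amotl2-201 (39.1% and 39.82%) and Amotl2-211 (13.6% and 13.27%). Amotl2-201 was assigned more counts than Amotl2-203, 1882.58 and 1957.64 against 1609.47 and 1564.17. By TPM share the leading pair was nearly level in replicate 2, so the order of these forms depends on the measure.

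**Figure D3:**
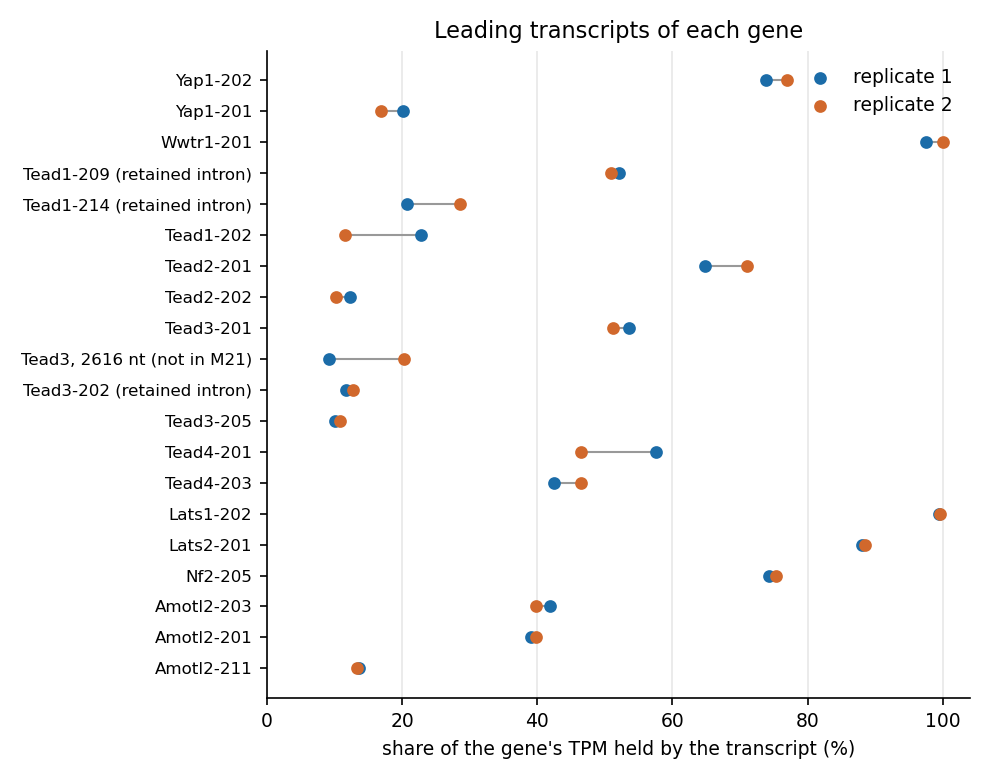
Share of each gene's TPM in percent held by its leading transcript and by any other with a mean of at least 10%, with 1 point per replicate joined by a line. Lats1-202, Wwtr1-201 and Lats2-201 dominate their genes in both replicates, while the TPM of Tead1, Tead3 and Tead4 is divided among forms, of which Tead1-202 moves from 22.77% to 11.59%.

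For each gene, the counts of both libraries were set against each other in an exact binomial test, which covers counting error only and compares these libraries, not conditions. None of the 10 genes was called at an adjusted p under 0.05 with a fold of at least 2, against 1.85% of the 18580 genes tested. Before adjustment, 5 of the 10 had p under 0.05 in this exact test, against 27.3% of all genes tested. With no fold limit, 3 of the 10 passed, against 16.4% of all genes tested. The median absolute log2 difference was 0.11 over the 10 genes and 0.12 over all genes tested. edgeR's exact test called 0 genes (0%) after adjustment and had 173 at an unadjusted p under 0.05, none of them among the 10. Its estimate of spread comes from the same pair of libraries that it compares, so its lack of calls says nothing about these genes.

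The genes that passed with no fold limit were Tead1, Yap1 and Nf2. Tead1 had 1141 expected counts in replicate 1 and 1441 in replicate 2, a scaled log2 difference of 0.32 (95% interval 0.20 to 0.43, exact binomial test, adjusted p = 1.07e-06). Yap1 was higher in replicate 2 by 0.13 (0.07 to 0.20, adjusted p = 0.000422 by the same exact test). Nf2 was lower in replicate 2, at -0.14 (-0.21 to -0.07, adjusted p = 0.000452 by the same exact test). Each difference was under the fold of 2, and whether it exceeds the spread between pools cannot be tested with 1 library on each side.

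For Tead1, counts and TPM gave different sizes of difference. TPM was 1.55-fold higher in replicate 2, scaled counts 1.24-fold and the TPM of protein-coding transcripts 1.19-fold. Of the 300 counts gained in replicate 2, 151.62 were assigned to protein-coding and 148.44 to retained-intron transcripts. Of the 12.89 TPM gained, 1.14 was in protein-coding and 11.77 in retained-intron transcripts. The log2 difference in TPM exceeded that in counts by 0.32 for Tead1, a gap at least as large in either direction in 260 of 12701 protein-coding genes (2.05%).

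**Figure D4:**
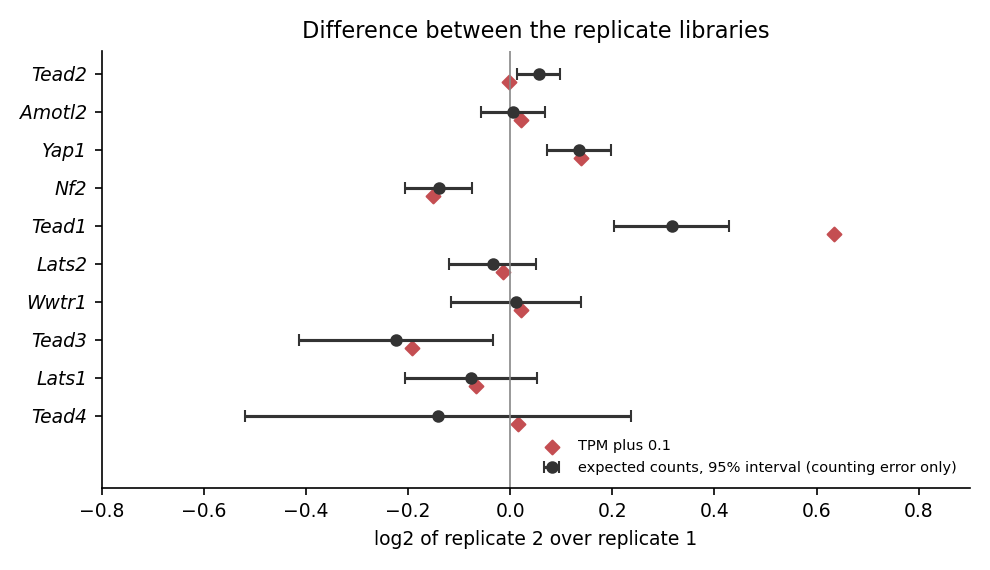
Log2 difference of replicate 2 over replicate 1 for each gene, with circles and 95% intervals for counting error from expected counts and diamonds for TPM plus 0.1. Tead1 lies farthest from 0, at 0.32 in counts and 0.63 in TPM, and Nf2 and Yap1 lie at -0.14 and 0.13 in counts.

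Tissue markers were measured in the same libraries. All 6 limb mesenchyme markers reached 1 TPM in both, from Tbx5 at 29.6 to Msx1 at 395 mean TPM, while 2 of 5 liver and 2 of 5 heart markers did, and the heart gene Nkx2-5 was listed at 0. Over all genes tested, 7.1% were higher and 9.3% lower in replicate 2 at an adjusted p under 0.05 in the exact binomial test. The fold of 2 was also passed by 1.85%. Beside this, 5 of 5 neuron markers were higher in replicate 2 at that threshold, with a summed level of 21.2 and 37.8 TPM. Nefl, Prph and Elavl3 passed the fold of 2. Of these, Prph (5 and 126 counts) and Elavl3 (1 and 16) did not reach 1 TPM in both libraries. Of 5 cartilage markers 4 were lower in replicate 2, with a summed level of 866 and 750.1 TPM. Among them, Acan and Matn1 passed the fold of 2. At the same adjusted p, 3 of 5 muscle markers were lower in replicate 2 and none was higher. The ectoderm, endothelium and erythroid lists each had 2 of 5 lower and none higher. Of 4 liver markers tested 1 was lower, and no leukocyte, Schwann precursor or heart marker passed. Of the limb mesenchyme markers, 4 were higher and 1 lower in replicate 2 at an adjusted p under 0.05. The forelimb gene Tbx5 was at 35.17 and 24.11 TPM, while the hindlimb genes Tbx4, at 32.27 and 37.14, and Pitx1, at 142.42 and 172.90, went the other way and were named after their values were seen. The part of these shifts in the differences of Tead1, Yap1 and Nf2 was not tested.

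The Tead binding motif GGAATG, or CATTCC on the other strand, was searched in RefSeq promoter windows (GRCm38.p6, 250 bases before to 50 after each start). Of the 10 genes, 8 had a window there. The motif occurred in at least 1 window of 5 of these 8 genes (62.5%), Yap1, Wwtr1, Tead3, Lats2 and Amotl2, against 16.6% of all 27025 genes with a window. Counted by window, 7 of 13 (53.8%) held it against 14.7% of all 32851, and the median GC content was 67.7% in the former and 52.7% in the latter. The Wwtr1 windows overlap and hold the same site, and the Tead3 windows also overlap, so windows do not count separate occurrences. Tead3 held further matches that are not shown. A match is a description of letters only. Stretches of 30 bases are shown with the motif in capitals, since they place it in genes of the pathway itself.
Yap1 (chr9:8004720-8004749, minus strand): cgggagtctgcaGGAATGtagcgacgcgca
Wwtr1 (chr3:57576029-57576058, minus strand): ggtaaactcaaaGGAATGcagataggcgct
Amotl2 (chr9:102717727-102717756, plus strand): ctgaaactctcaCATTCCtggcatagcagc
Lats2 (chr14:57746102-57746131, minus strand): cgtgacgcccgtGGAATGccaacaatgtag
Tead3 (chr17:28350970-28350999, minus strand): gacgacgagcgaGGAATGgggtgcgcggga
Among target genes commonly used to read YAP and TAZ activity, 5 of 13 with a window held the motif, Ptpn14, Ccn1, Axl, Crim1 and Ankrd1.

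The other genes of the pathway were taken from 4 lists, 43 genes in all, of which 39 reached 1 TPM in both libraries. None was called between the libraries, against 1.85% of all genes tested. With no fold limit 2 were higher and 8 lower in replicate 2, against 7.1% and 9.3% of all genes tested. All 5 genes of the kinase cassette were detected, with a median of 24.1 TPM beside 21.9 over all detected protein-coding genes. They were led by the LATS cofactor gene Mob1a at 55.9 ± 0.891, the Hippo kinase genes Stk3 at 41.7 ± 1.65 and Stk4 at 24.1 ± 1.10 TPM, with the scaffold gene Sav1 lowest at 10.8 ± 0.346. All 14 upstream regulators were detected, with a median of 25.1 TPM. The angiomotin gene Amot was highest at 66.0 ± 1.71 TPM. It was followed by the FERM domain gene Frmd6 at 56.1 ± 1.09 and the LIM protein gene Ajuba at 54.0 ± 2.56. The scaffold gene Wwc1 was lowest at 3.71 ± 1.05 TPM. Its expected counts of 200 and 372 gave a scaled log2 difference of 0.87, and it was 1 of the 2 genes higher in replicate 2.

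The Vgll genes encode Tead cofactors that share the Tead surface with YAP and TAZ, and 3 of 4 were detected. Vgll4, which competes with YAP for Tead proteins, was at 102 ± 3.54 TPM, above Yap1 in both libraries. Vgll2 was at 20.2 ± 1.16, Vgll3 at 4.23 ± 0.863 and Vgll1 at 0.570 ± 0.113 TPM. Of 20 target genes 17 were detected, with a median of 8.11 TPM. The highest were Igfbp3 at 103 ± 4.14, Asap1 at 87.3 ± 14.4 and Tgfb2 at 68.7 ± 2.17 TPM, and Nuak2 was lowest at 0.650 ± 0.170. With no fold limit, 4 of the 20 target genes were lower in replicate 2 and none was higher, beside the same 9.3% and 7.1% of all genes tested. These 4 were Ccn2 (8.96 and 6.28 TPM), Ccn1 (54.16 and 49.30), Ptpn14 (9.23 and 7.97) and Arhgef17 (7.94 and 6.43), named after their values were seen. The 20 target genes had a median log2 difference of -0.11, against -0.01 over all genes tested.

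**Figure D5:**
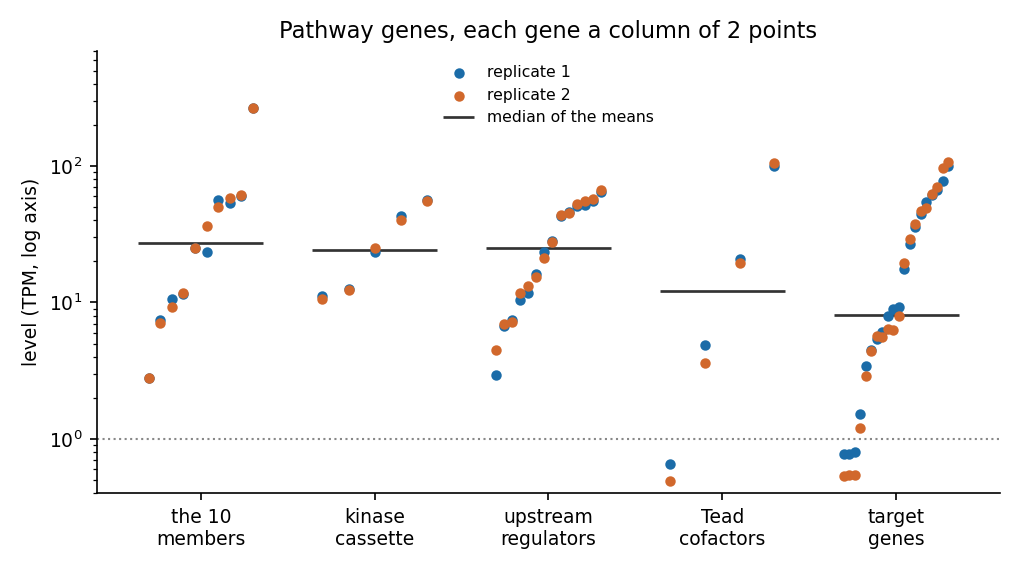
Level in TPM on a log axis of every gene in the 10-gene set and in the 4 further lists, each gene as a column of 1 point per replicate and ordered by mean, with bars at the list medians and a dotted line at 1 TPM. The target genes span from under 1 to over 100 TPM around a median of 8.11, and the single point pair far above the rest of the 10 genes is Tead2.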

How the data were processed

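Per the file headers, the deposited expected counts are estimated reads per gene and per transcript. The deposited TPM and FPKM values are scaled for effective length and for depth over all rows, spike-ins included. In the deposited percent column, a transcript's TPM is divided by that of its gene. The text files deposited beside the tables name mm10 and GENCODE M4. Aligner, quantifier and strand setting: not given in the sources used here. Of the counts, 3.28% and 2.30% lay outside Ensembl genes.

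Names, coordinates and transcript types came from GENCODE M21 on the same assembly, matching 42462 genes by identifier. Exon sequences came from its transcripts and promoters from RefSeq GRCm38.p6. A gene was detected at 1 TPM in both libraries, and log ratios of TPM used a pseudocount of 0.1 TPM. Rounded expected counts, scaled by the total over Ensembl genes, were compared with a two-sided exact conditional binomial test and Benjamini-Hochberg adjustment over genes with at least 10 summed counts. With 1 group, no quasi-likelihood test of edgeR was possible. The test was tested on simulated counts for this comparison with counting error only. Of the genes changed 2-fold 56% were called and of those changed 4-fold 100%, with 4 false calls among 18567 genes tested. The 2-fold change equals the fold limit, and 100% of those genes passed the adjusted p alone. The libraries here differ by more than counting error, so the simulated false calls do not give a rate for them. The libraries were not one library deposited again (chi-square per degree of freedom 6.21 over 18580 genes). The common biological coefficient of variation was 0.0718. The labels call the pools biological replicates.

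The text names all 10 genes, the 3 highest and the lowest of each further list, called members, and markers by the highest and lowest of a list, except where stated. The 10 genes and the lists were chosen with earlier results of these data known. Alternatives changed the pseudocount, unit, scaling, filter and test. Protein sequences were not analysed here. Tools were edgeR 4.0.16 and DESeq2 1.42.0 in R 4.3.3, and scipy 1.17.1, pandas 2.3.3, numpy 2.4.6 and matplotlib 3.10.9 in Python 3.11.15.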

Additional observations from a re-analysis of the deposited data

How the results depend on the processing

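All 10 genes were detected at 0.5 TPM, by FPKM and by posterior mean TPM, and 9 at 5 TPM, where Tead4 fell short. The log2 ratio of Yap1 to Wwtr1 was 2.17 when 1 TPM was added and 2.04 without length scaling, and that of Lats1 to Lats2 was -1.65, -1.23 and, with posterior mean TPM, -1.87, so the direction held throughout. The Tead2 share was 83.1% without length scaling and 93.2% with protein-coding transcripts only. The latter setting, chosen after seeing the data, turned the log2 ratio of Tead1 to Tead3 to -0.038, and leaves out noncoding and unlisted transcripts of both genes. Between the libraries, 343 of 18580 genes (1.85%) were called in the main setting. With a minimum of 100 summed counts, 75 of the 13645 genes left (0.55%) were called. With no fold limit, 3048 of 18580 (16.4%) passed, 3 of them among the 10. edgeR's exact test called 0, and its spread comes from the pair of libraries it compares. Of 50 recomputed differences between libraries, 46 lay within the gene's counting interval, and some settings only rescaled the same counts. The rest were all of Tead genes. By TPM, Tead1 was at 0.63 and Tead2 at -0.0024. By counts of protein-coding transcripts, Tead1 was at 0.19 and Tead3 at -0.53. Of 48 recomputed paralog ratios, 28 moved by less than the replicate spread, as did 5 of 12 recomputed Tead shares. Of 20 mean isoform shares recomputed from posterior means, 10 moved by less than that spread and 10 by more. Among the latter, Tead4-201 went from 52.0% to 40.9%, Tead3-201 from 52.4% to 42.1% and Lats2-201 from 88.3% to 81.5%. No paired analysis was possible because the series has 1 group. Tead4, at 125 and 115 counts, is the gene most limited by depth.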

Other observations

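Asap1, a target gene encoding a regulator of Arf proteins, had 77.1 and 97.5 TPM in replicates 1 and 2, a log2 difference of 0.34, while its expected counts differed by -0.02. Stk4 was lower in replicate 2 by counts, at -0.16 on the log2 scale, and higher by TPM, at 0.09. Map4k4, a kinase gene upstream of the LATS kinases, had 52.7% and 57.2% of its TPM in retained-intron transcripts and was at 50.6 and 52.8 TPM. These genes were named after their values were seen, and the cause was not tested.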
